A study of Mus musculus with 8 samples.

Results

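Translation initiation factor genes were followed across 4 states of mouse splenic CD4+ T cells. The members were all rows of the deposited gene table whose symbol begins with Eif, then a digit from 1 to 6 and any further small letters or digits, leaving out the eIF2 kinases (Eif2ak). The rule took 52 of 34745 rows. Of these, 50 had enough reads to be tested. Eif4e1b, an oocyte-type cap-binding paralog, and Eif2c5, an Argonaute-type name that the rule picks up by its letters, had no read in any library.

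All cells came from wild-type C57BL/6 mice, and no other allele or agent is named. The 8 RNA-seq libraries fall into 4 groups of 2. Naive libraries (replicates 1 and 2) were CD4+ cells taken straight from the spleen without culture. Th0 libraries (replicates 1 and 3) were stimulated through CD3 and CD28 for 3 days. Th17 and Treg libraries (replicates 2 and 3 in each) were kept for 3 days in media meant to drive the IL-17-producing or the Foxp3-expressing state. No cytokine, age, sex or number of mice is given. Whether the pair of libraries in a group stands for different mice or different cultures is not stated either, and the p-values then reflect only the scatter within such pairs, pooled over the groups, which may be technical. In bulk RNA, fewer cells of a type and less RNA per cell cannot be told apart.

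Initiation brings a ribosome to the start codon of an mRNA. The small subunit, carrying eIF1, eIF1A, eIF3 and the initiator tRNA held by eIF2, is recruited to the cap through eIF4F, which joins the cap-binding eIF4E, the scaffold eIF4G and the helicase eIF4A. It scans to the start codon, eIF5 triggers GTP hydrolysis by eIF2, and eIF5B joins the large subunit. T cells leave quiescence when their receptor is engaged, and a sharp rise in protein synthesis is a well-known part of that step.

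Library totals ran from 12504463 to 22443368 counts, and the members took 0.905% to 1.11% of them. The cell labels were checked against markers. Pan T markers summed to 2201 to 2403 CPM, that is, counts after scaling every library to the same size, in naive, 3123 to 3441 in Th0, 2381 to 2424 in Th17, with 3102 to 3116 in Treg. Foxp3 stood at 317 and 270 CPM in Treg against at most 9.93 in Th0 and Th17. Both naive libraries also held Foxp3, at up to 101 CPM. Il17a stood at 57.5 and 34.3 CPM in Treg and at 60.9 and 33.7 CPM in Th17, so this Th17 marker did not separate the Treg libraries from the Th17 libraries. All 8 libraries carried reads of Y-linked genes.

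The naive libraries held other cell types. The summed level of 9 myeloid markers was 3392 to 3628 CPM in naive, 42.7 to 51.1 in Th0, 129 to 142 in Th17, with 102 to 125 in Treg. For 8 B cell markers the sums were 1216 to 1527 CPM in naive, 210 to 219 in Th0, 552 to 594 in Th17, with 149 to 156 in Treg. Red blood cell markers (4 genes) summed to 197 to 256 CPM in naive and at most 0.594 in the cultured groups, where 1 Treg library had none. Markers of CD8 cells (2 genes) summed to 82.0 to 91.6 CPM in naive, 176 in each Th0 library, 122 in each Th17 library and 426 to 469 in Treg, and NK markers (4 genes) to 48.3 to 57.4 CPM in naive and at most 22.6 elsewhere. All 9 myeloid, all 8 B cell and all 4 red blood cell markers fell from naive to Th0, and their part in the differences described next was not tested. Of the defining markers, C1qb (myeloid) and Ncr1 (NK) were at 0 in both Th0 libraries. In Treg against Th0, both CD8 markers rose, 7 of 9 myeloid markers rose and 1 fell, and 4 of 8 B cell markers fell. In Th17 against Th0, 7 of 8 B cell and 8 of 9 myeloid markers rose, both CD8 markers fell, and 6 of 8 pan T markers fell. The part of these cells in the member results was not tested there either.

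After 3 days of stimulation, most eIF3 genes and all eIF2 genes were higher than in naive cells, and the eIF5 and eIF6 genes were lower. In Th0 against naive, 25 of 50 members were called higher and 14 lower, at a Benjamini-Hochberg adjusted p under 0.05 in edgeR's quasi-likelihood test over all genes. Over all 14690 genes tested, 31.3% were called higher and 36.4% lower. The median log2 fold change was 0.40 over the members and -0.08 over all genes. By group mean, naive was the lowest state for 27 members and Th0 the highest for 23. Both Th0 libraries lay above both naive libraries for 30 members and below both for 18, whether called or not. The shares of all genes in these orders were not computed.

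**Figure D1:**
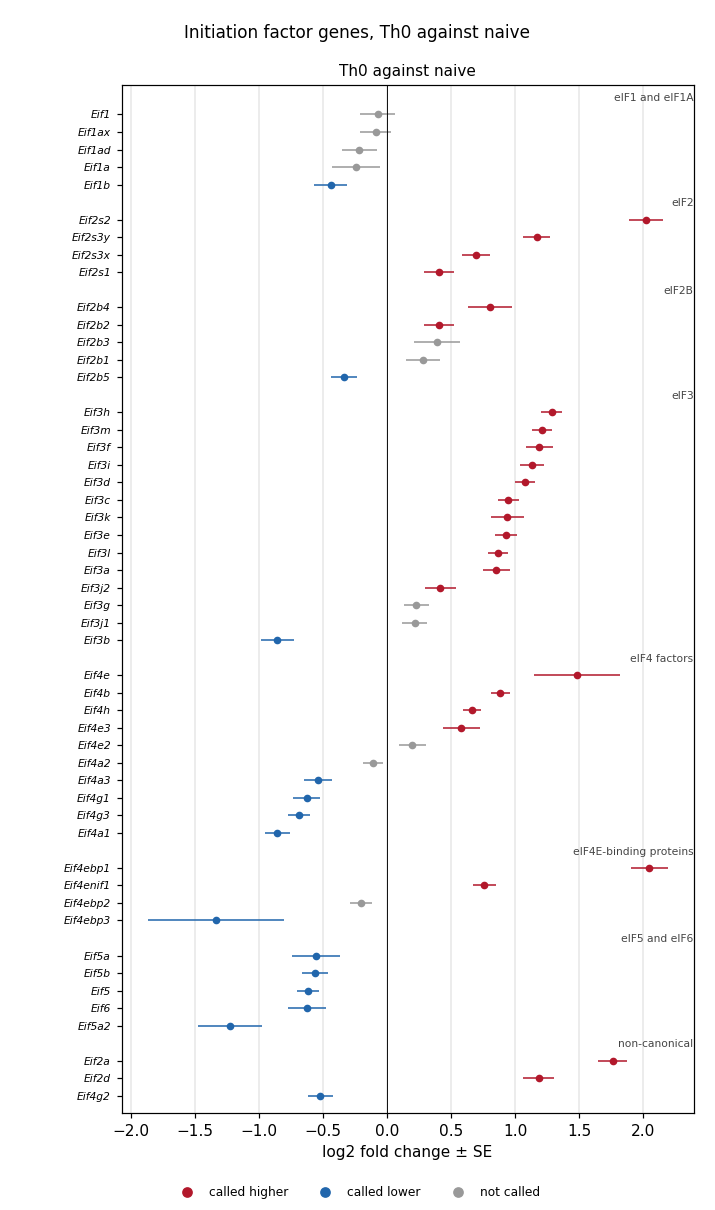
Log2 fold change of each tested member in Th0 against naive (x axis, with its SE as the bar), arranged by complex on the y axis and coloured by call. The eIF2 genes and 11 of 14 eIF3 genes sit to the right of 0 as called higher, Eif3b alone among eIF3 sits to the left, and all 5 eIF5 and eIF6 genes sit to the left.

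The group with the most members is eIF3, the scaffold that holds the small subunit and its partners together, and 11 of its 14 genes rose in Th0 while 1 fell. Their median log2 fold change was 0.93. Eif3h (chr15:51786558-51865481, minus strand, GRCm38) rose from 307 and 321 CPM in the naive libraries to 747 and 785 in Th0, a log2 fold change of 1.28 ± 0.08 (SE; n = 2 libraries a group, adjusted p = 1.21e-06 in edgeR's quasi-likelihood test). Its libraries did not overlap, and Th17 (544 and 601 CPM) and Treg (506 and 504 CPM) lay between. Eif3m rose from 122 and 130 to 296 and 287 CPM (1.21 ± 0.08 on the log2 scale), and Eif3f from 351 and 348 to 797 in each library (1.19 ± 0.11). Eif3a, the largest subunit and part of the core, rose from 530 and 528 to 975 and 937 CPM (0.85 ± 0.10, adjusted p = 6.40e-05).

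The other called subunits were Eif3i (1.13), Eif3d (1.07), Eif3c (0.95), Eif3k (0.94), Eif3e (0.93), Eif3l (0.87) and Eif3j2 (0.42), given as log2 fold changes in Th0 against naive. Eif3d is the subunit known to contact the cap of some mRNAs. Eif3j2 and Eif3j1 encode the loosely attached j subunit and share most of their sequence (90.8% of the 50-base words of Eif3j2 are also in Eif3j1), so reads may be split between them. Eif3j1 and Eif3g were not called, at 0.21 and 0.23. Both Th0 libraries stood above all 6 others for 11 of the 14 genes, and the share of all genes in this order was not computed.

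Eif3b ran against its partners. This gene (chr5:140419328-140443360, plus strand, GRCm38) encodes a core subunit with which eIF3a, eIF3g and eIF3i assemble. Its level was 209 and 211 CPM in naive, 113 and 119 in Th0, 204 and 158 in Th17, with 252 and 216 in Treg. Th0 was the lowest group with no overlap, at a log2 fold change of -0.86 ± 0.13 against naive (adjusted p = 0.000271, edgeR's quasi-likelihood test). Its call held in each alternative to the test, in Th0 against naive and in both comparisons with Th0 below.

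**Figure D2:**
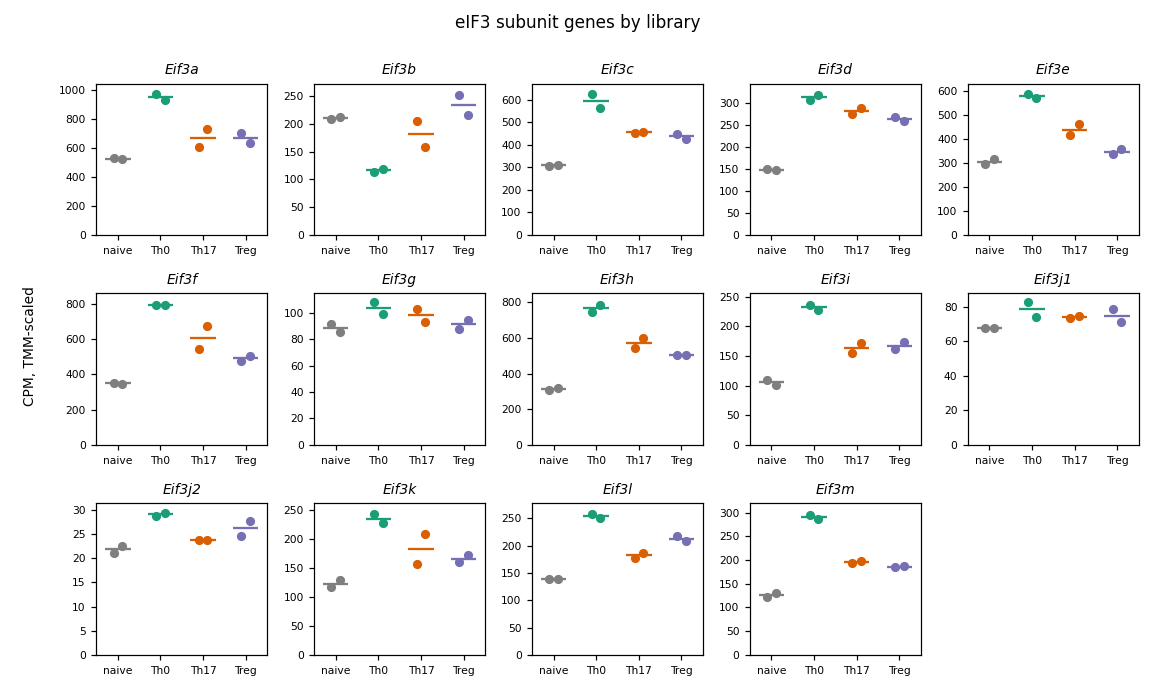
TMM-scaled CPM (y axis, from 0) of the 14 eIF3 genes in each library, with 1 point per library and a line at the group mean. Th0 is the highest group for 13 of 14 genes, and Eif3b is the exception, with Th0 at 113 and 119 CPM below all other libraries.

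Promoters of eIF3 genes are shown because most of these genes moved together. RefSeq promoter sequences on GRCm38.p6 were matched by symbol for 40 of the 52 members, 10 of them eIF3 genes. The 250 bases before the most upstream start were searched on both strands for the E-box CACGTG, bound by Myc-family factors among others, and for the ETS-type core CCGGAA. The 120 bases next to the start are printed for 5 called genes with a match there and for Eif3b, with matches in capitals. Eif3l, another called gene with matches there, is not printed. Eif3a, Eif3e, Eif3h, Eif3i and Eif3j2 also rose in Th0 but gave no match, having either no promoter entry or no motif in the window. The stretches of the rising genes were picked for their matches, so they do not show how often a match goes with a rise. The stretches of Eif3c and Eif3m reach into the deposited gene spans, which end at 126566411 and 105017080.
Eif3f (chr7:108934295-108934414, plus strand): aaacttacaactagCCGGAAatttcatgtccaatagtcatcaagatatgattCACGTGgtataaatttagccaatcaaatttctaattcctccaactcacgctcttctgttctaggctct
Eif3k (chr7:28981889-28982008, minus strand): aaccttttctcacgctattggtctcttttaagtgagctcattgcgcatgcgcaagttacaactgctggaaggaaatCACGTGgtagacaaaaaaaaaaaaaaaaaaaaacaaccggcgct
Eif3c (chr7:126566367-126566486, minus strand): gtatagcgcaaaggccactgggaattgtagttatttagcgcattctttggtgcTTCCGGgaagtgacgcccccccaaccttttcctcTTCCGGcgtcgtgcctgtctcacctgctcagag
Eif3d (chr15:77970825-77970944, minus strand): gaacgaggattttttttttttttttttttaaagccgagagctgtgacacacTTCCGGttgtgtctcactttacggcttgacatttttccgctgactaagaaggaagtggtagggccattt
Eif3m (chr2:105017028-105017147, minus strand): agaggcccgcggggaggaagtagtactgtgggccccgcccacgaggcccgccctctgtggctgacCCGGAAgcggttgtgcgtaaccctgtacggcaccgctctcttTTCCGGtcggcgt
Eif3b (chr5:140419185-140419304, plus strand): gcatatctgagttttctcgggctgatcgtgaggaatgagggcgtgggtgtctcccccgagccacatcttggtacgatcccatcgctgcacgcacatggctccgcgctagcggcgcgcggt

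The ETS-type core was found in 6 of the 10 eIF3 promoters (Eif3c, Eif3d, Eif3f, Eif3g, Eif3l and Eif3m) and in 14 of the 40 member promoters, 35.0%, against 12.3% of the 27025 promoters of the table. The E-box was found in 2 of the 10 (Eif3f and Eif3k) and in 7 of the 40, 17.5%, against 6.04% of all promoters. Besides the eIF3 genes, the E-box was in the window of Eif1b, Eif4a1, Eif4g1, Eif4h and Eif5a2. Of these, Eif4h rose in Th0 and the other 4 fell. Outside eIF3, the ETS-type core was in the window of Eif1ad, Eif1ax, Eif1b, Eif2d, Eif4a2, Eif4ebp2, Eif4g3 and Eif5a2. Among them, Eif2d rose in Th0, Eif1b, Eif4g3 and Eif5a2 fell, and Eif1ad, Eif1ax, Eif4a2 and Eif4ebp2 were not called. The matches do not overlap each other in the printed stretches, and a match is a description of letters, not of binding. The comparison set holds all genes of the table, whether expressed in these cells or not.

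All 4 genes of eIF2, which carries the initiator tRNA, rose in Th0. Eif2s2, the beta subunit (chr2:154871410-154892935, minus strand, GRCm38), went from 68.7 and 72.7 CPM in naive to 327 and 248 in Th0, a log2 fold change of 2.03 ± 0.13 (adjusted p = 1.26e-06, edgeR's quasi-likelihood test). The groups did not overlap, although the Th0 libraries lay apart. Eif2s1, the alpha subunit whose phosphorylation slows initiation, went from 104 and 96.3 to 135 and 130 CPM (0.40 ± 0.12, adjusted p = 0.0116), and this call was lost in 2 of 15 alternatives. The gamma subunit has an X-linked gene, Eif2s3x (log2 fold change 0.70), and a Y-linked gene, Eif2s3y (1.17 ± 0.10). The Eif2s3x to Eif2s3y ratio of deposited FPKM was 0.88 and 0.75 in naive, 0.57 and 0.61 in Th0, 0.77 and 0.61 in Th17, with 1.08 and 0.84 in Treg. In this ratio naive lay above Th0, Treg lay above Th0 and Th17, and the remaining pairs of groups overlapped.

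The exchange factor eIF2B, which reloads eIF2 with GTP, gave 2 higher genes of 5 and 1 lower. Eif2b4 (log2 fold change 0.80 ± 0.17) and Eif2b2 (0.41 ± 0.12) were higher in Th0, and Eif2b5, the catalytic subunit, was lower (-0.34 ± 0.10). The Eif2b5 call was lost in 5 of 15 alternatives. Eif2b3 was at 14.9 and 15.0 CPM in naive and 18.9 and 20.3 in Th0, and was not called (0.39 ± 0.18, adjusted p = 0.0830, edgeR's quasi-likelihood test).

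The eIF4 genes went both ways, 4 higher and 4 lower of 10. Eif4e, the cap-binding protein (chr3:138526179-138559696, plus strand, GRCm38), was at 71.6 and 27.1 CPM in naive and 127 and 149 in Th0. Both naive libraries lay below both Th0 libraries but far from each other, and the log2 fold change was 1.48 ± 0.34 (adjusted p = 0.00352, edgeR's quasi-likelihood test). It was 0.94 without naive replicate 2 and 2.35 without naive replicate 1. The cofactors of the helicase, Eif4b (641 and 654 to 1196 and 1192 CPM; 0.88 ± 0.07) and Eif4h (0.66 ± 0.07), were higher, and so was the cap-binding paralog Eif4e3 (0.58 ± 0.14).

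The scaffolds and the main helicase were lower. Eif4g1 went from 463 and 412 CPM in naive to 267 and 299 in Th0 (-0.63 ± 0.11), and its paralog Eif4g3 from 288 and 308 to 177 and 192 (-0.69 ± 0.09). Eif4a3, a helicase of the exon junction complex, was lower too (-0.54 ± 0.11 on the log2 scale). Eif4a1 (chr11:69666936-69672423, minus strand, GRCm38) was at 232 and 234 CPM in naive and 130 and 127 in Th0, without overlap (-0.86 ± 0.10, adjusted p = 4.74e-05, edgeR's quasi-likelihood test). Its paralog Eif4a2 was not called (600 and 615 CPM against 543 and 583; -0.11 ± 0.08, adjusted p = 0.229), and Eif4e2, a cap-binding repressor, was not either (0.19).

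The value of Eif4a1 is uncertain. A processed pseudogene, Eif4a-ps4, shares 95.7% of its 50-base words with Eif4a1 and held more reads than Eif4a1 in every library, from 4549 to 9578 counts. With its counts added to Eif4a1, an alternative chosen after seeing the data, the levels were 603 and 613 CPM in naive, 509 and 478 in Th0, 584 and 451 in Th17, with 782 and 692 in Treg. The log2 fold change in Th0 against naive was then -0.30 (adjusted p = 0.0496).

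The binding proteins that hold eIF4E away from eIF4G did not move together. Eif4ebp1 (chr8:27260327-27275656, plus strand, GRCm38) rose from 13.3 and 12.4 CPM in naive to 59.2 and 47.4 in Th0, a log2 fold change of 2.05 ± 0.14 (adjusted p = 2.00e-06, edgeR's quasi-likelihood test). This and the value of Eif2s2 were the highest of the members, and they lay within an SE of each other. All 6 cultured libraries lay above both naive libraries, at 61.9 and 56.7 CPM in Th17, with 40.2 and 45.7 in Treg. Eif4ebp2 was not called (141 and 142 against 126 and 120 CPM; -0.20 ± 0.09, adjusted p = 0.0641). The ratio of Eif4ebp1 to Eif4ebp2 in deposited FPKM was 0.29 and 0.27 in naive, 1.45 and 1.22 in Th0, 1.76 and 1.57 in Th17, with 1.12 and 1.15 in Treg, so that no cultured library overlapped a naive one. Eif4ebp3 stayed at or below 2.43 CPM; its call as lower was lost in 9 of 15 alternatives, and it lies within the Ankhd1 locus on the same strand, so its reads may belong to that gene. Eif4enif1, the 4E-T protein that takes eIF4E to the nucleus and to P-bodies, rose by 0.76 ± 0.09 on the log2 scale. Its whole locus of 42197 bases overlaps Drg1 on the opposite strand. Strandedness is not given, so some of its reads may belong to that gene.

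All 5 genes of the eIF5 and eIF6 group fell in Th0. Eif5, the GTPase activator, went from 468 and 469 CPM in naive to 316 and 293 in Th0 (-0.62 ± 0.09), and Eif5b, which joins the subunits, from 164 and 156 to 108 and 109 (-0.56 ± 0.10). Eif6, which keeps the large subunit from joining too early, went from 51.2 and 47.9 to 29.4 and 34.9 CPM (-0.62 ± 0.15, adjusted p = 0.00441, edgeR's quasi-likelihood test). Eif5a, the hypusine-carrying factor that helps ribosomes through stalling sequences, went from 302 and 288 to 210 and 191 CPM (-0.56 ± 0.19, adjusted p = 0.0246), and the call was lost in 5 of 15 alternatives. Its paralog Eif5a2 went from 18.3 and 17.9 to 8.98 and 6.39 CPM (-1.23 ± 0.25). None of the Th0 libraries overlapped a naive library for these 5 genes, which was also so for most other members, called or not.

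Of the non-canonical factors, Eif2a (76.4 and 74.0 to 263 and 247 CPM; 1.76 ± 0.12) and Eif2d (31.2 and 34.5 to 69.4 and 79.8 CPM; 1.18 ± 0.12), which can bring tRNA to the ribosome without eIF2, rose in Th0. Eif4g2, the eIF4G-like protein that does not bind eIF4E, fell by 0.52 on the log2 scale. Eif2d overlaps Rassf5 on the opposite strand, and Eif2a overlaps Serp1 for 72 bases. Reads of overlapping genes cannot be told apart without strand information. Of the genes grouped by name as eIF1 and eIF1A, Eif1b was lower (-0.44 ± 0.13), while Eif1, Eif1a, Eif1ax and Eif1ad were not called, at -0.24 to -0.07.

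**Figure D3:**
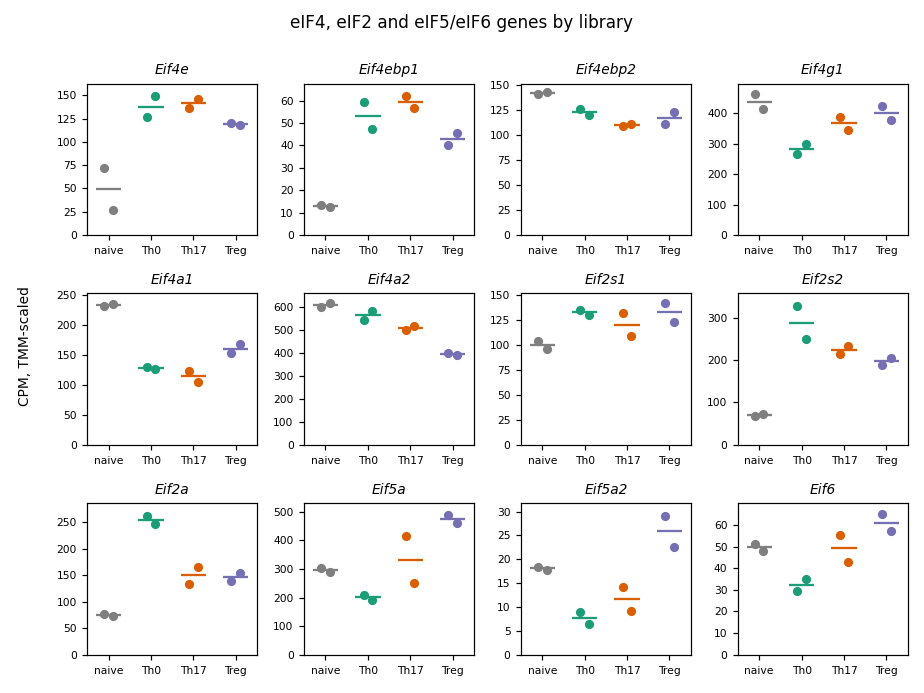
TMM-scaled CPM (y axis, from 0) of 12 members of the eIF4, eIF2, eIF5 and eIF6 groups in each library, with 1 point per library and a line at the group mean. Eif4ebp1, Eif2s2 and Eif2a are lowest in naive, Eif5a, Eif5a2 and Eif6 are lowest in Th0 and highest in Treg, and the naive libraries of Eif4e lie apart at 71.6 and 27.1 CPM.

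The next comparisons all use the same Th0 libraries, so their directions are not independent of each other or of Th0 against naive. In Th17 against Th0, 5 of 50 members were called higher and 14 lower, where 16.1% of all genes were called higher and 12.6% lower. The member median was -0.16 and the median over all genes 0.05 (log2). In Treg against Th0, 14 members were called higher and 17 lower, where 25.7% of all genes were called higher and 20.6% lower. The member median was -0.18 and that over all genes 0.09.

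The eIF3 genes other than Eif3b were lower than in Th0 or not called. In Th17, 8 of 14 were lower and 1 higher; in Treg, 10 were lower and 1 higher. Eif3m went from 296 and 287 CPM in Th0 to 193 and 199 in Th17 (-0.57 ± 0.08 on the log2 scale) and to 184 and 187 in Treg (-0.65 ± 0.08). Eif3a was lower by 0.51 on the log2 scale in each (adjusted p = 0.00604 in Th17 and 0.00333 in Treg, edgeR's quasi-likelihood test). In Treg, Eif3e (-0.74 ± 0.09) and Eif3f (-0.70 ± 0.10) fell most among the subunits. The calls of Eif3f in Th17 (6 of 15 alternatives) and of Eif3d and Eif3l in Treg (7 of 15 each) were lost most often. The exception was again Eif3b, higher than in Th0 by 0.65 ± 0.13 in Th17 and 1.01 ± 0.13 in Treg (adjusted p = 0.00584 and 0.000322, edgeR's quasi-likelihood test).

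Of the 5 eIF5 and eIF6 genes, 3 were called higher and 1 lower in Th17 than in Th0, and 4 higher and 1 lower in Treg. Eif5a (chr11:69916714-69921958, minus strand, GRCm38) was at 414 and 251 CPM in Th17, with 489 and 461 in Treg. Against 210 and 191 CPM in Th0, the log2 fold change was 0.73 ± 0.19 in Th17 (adjusted p = 0.0190, edgeR's quasi-likelihood test) and 1.25 ± 0.19 in Treg (adjusted p = 0.000812). The Th17 libraries lay far apart, and without Th17 replicate 2 the value was 0.32 and not called (adjusted p = 0.0527). Eif5b was higher by 0.39 ± 0.10 in Th17 and 0.30 ± 0.10 in Treg, and the Treg call was lost in 10 of 15 alternatives. Eif6 was higher by 0.61 ± 0.15 in Th17 and 0.92 ± 0.15 in Treg, and Eif5a2 by 1.75 ± 0.25 in Treg, at 29.1 and 22.6 CPM. In Th17 the Eif5b and Eif6 calls, like that of Eif5a, were lost without Th17 replicate 2 (Eif5b at 0.37, adjusted p = 0.0804; Eif6 at 0.42, adjusted p = 0.0944, edgeR's quasi-likelihood test), and all 3 were lost without Th0 replicate 1. Eif5 was the exception in this group, lower by 0.57 in Th17 and 0.37 in Treg on the log2 scale.

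Among the eIF4 genes and the eIF4E-binding proteins, Eif4g1 was higher than in Th0 in both states (0.37 ± 0.11 in Th17, adjusted p = 0.0276, and 0.50 ± 0.11 in Treg, adjusted p = 0.00433, edgeR's quasi-likelihood test). The Th17 call of Eif4g1 was lost in 4 of 15 alternatives, among them those without Th0 replicate 1 (0.27) and without Th17 replicate 2 (0.29). Eif4e, Eif4ebp1 and Eif4ebp2 were not called in either state, with log2 fold changes of 0.04, 0.15 and -0.16 in Th17 and -0.21, -0.31 and -0.08 in Treg. Eif4a2 was lower in Treg (-0.51 ± 0.08), at 399 and 392 CPM, and not called in Th17 (-0.15). Eif4a1 was called higher in Treg (0.32 ± 0.10, adjusted p = 0.0234) and not in Th17 (-0.16), and the Treg call was lost in 5 of 15 alternatives. With the pseudogene's counts added, Eif4a1 was at 0.58 in Treg and 0.07 in Th17. Eif4enif1 was lower in both states, by 0.77 in Th17 and 0.57 in Treg on the log2 scale.

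Of the remaining groups, the genes grouped by name as eIF1 and eIF1A gave 4 higher and 1 lower of 5 in Treg. The Eif1b call as higher was lost in 9 of 15 alternatives, and those of Eif1a and Eif1ax in 2 each. Eif1ad (0.88 ± 0.14) and Eif1a (0.63 ± 0.19) were among the higher, and Eif1, the start codon gatekeeper, was lower in Treg (-0.80 ± 0.14) and in Th17 (-0.56 ± 0.14). The Th17 call of Eif1 was lost in 3 of 15 alternatives, and without Th0 replicate 1 its value was -0.36 (adjusted p = 0.0747, edgeR's quasi-likelihood test). Eif4a3 was higher in Treg (0.66 ± 0.11). The falling genes in Treg included Eif2s3y (-0.81 ± 0.10), Eif2a (-0.79 ± 0.11) and Eif2s2 (-0.55 ± 0.13), and Eif2a was also lower in Th17 (-0.76 ± 0.11). Eif2s1 and Eif2b3 were not called in either state, with log2 fold changes of -0.14 and 0.12 in Th17, with 0.00 and 0.42 in Treg. Eif2b5 was higher in Treg (0.60 ± 0.10).

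**Figure D4:**
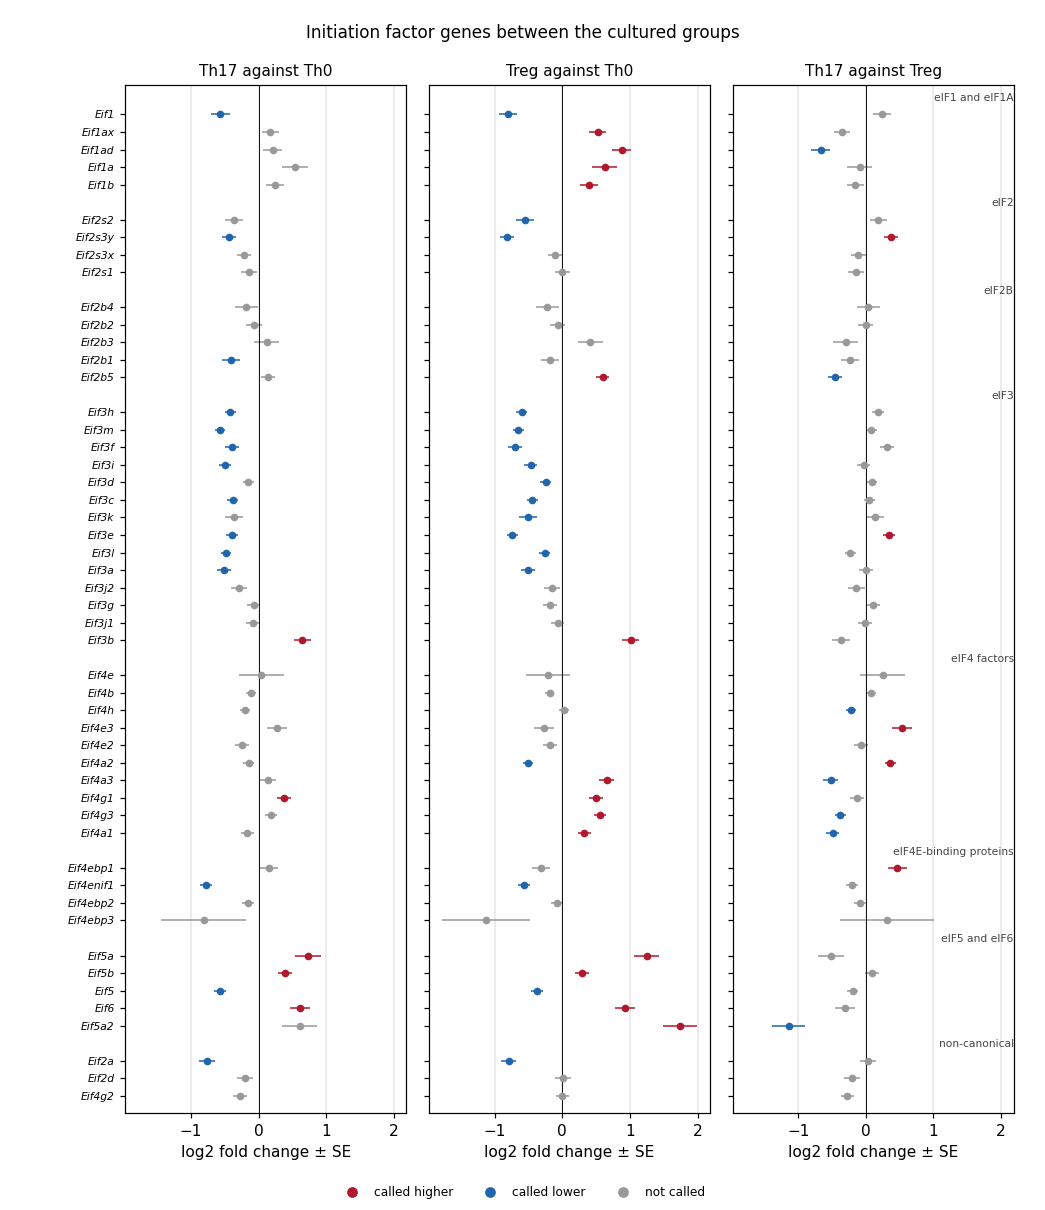
Log2 fold change of each tested member (x axis, with its SE as the bar; the same scale in each panel) between the cultured groups, 1 panel per comparison, arranged by complex on the y axis and coloured by call. Most eIF3 genes lie left of 0 in the first and second panels, Eif3b lies to the right in both, and most members are uncalled in the third.

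Th17 and Treg were also set against each other directly. In Th17 against Treg, 5 of 50 were called higher in Th17 and 7 lower, where 14.8% of all genes were called higher and 14.5% lower. The member median was -0.08 and that over all genes -0.03 (log2). In the same comparison, 7 of 8 B cell markers were higher in Th17, while both CD8 and 5 of 8 pan T markers were lower, and their part in the member results was not tested. Leaving out 1 library at a time gave 0 to 5 members higher and 1 to 11 lower. Without Treg replicate 2, none was called higher and 1 lower. The call of Eif4a1 held in all 15 alternatives, and each other call was lost in at least 1. Lower in Th17 were Eif5a2 (-1.14 ± 0.24), Eif1ad (-0.67 ± 0.14), Eif4a3 (-0.52 ± 0.11), Eif4a1 (-0.49 ± 0.10), Eif2b5 (-0.46 ± 0.10), Eif4g3 (-0.37 ± 0.09) and Eif4h (-0.22 ± 0.07), whose call was lost in 13 of 15 alternatives.

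The members called higher in Th17 than in Treg were Eif4e3 (0.54 ± 0.14), Eif4ebp1 (0.47 ± 0.14), Eif2s3y (0.38 ± 0.10), Eif4a2 (0.36 ± 0.08) and Eif3e (0.34 ± 0.09). The adjusted p of Eif4ebp1 was 0.0310 in edgeR's quasi-likelihood test. Eif4e, its binding partner, was not called (0.25 ± 0.33, adjusted p = 0.613). Eif5a (-0.52 ± 0.19, adjusted p = 0.0670), Eif6 (-0.31 ± 0.15), Eif4g1 (-0.13 ± 0.11), Eif3a (0.00 ± 0.10), Eif2s1 (-0.14 ± 0.12), Eif2b3 (-0.30 ± 0.18) and Eif4ebp2 (-0.08 ± 0.09) were not called.

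Levels of different members were compared as counts per kilobase of the longest annotated transcript. They were scaled to the raw library total, without the TMM factor used for the CPM above. This scale was taken because the deposited FPKM rests on lengths that are hard to place. Each FPKM follows from the count, the library total and 1 length per gene, and that length was above the longest GENCODE transcript for 34 of 50 members and above the whole genomic span for 3 (Eif1, Eif4a1 and Eif4a2). For Eif4a2 it was 16090 bases against a span of 6693 bases. Fold changes between libraries do not depend on this length. On the scale per kilobase of transcript, Eif3h was the highest member in every group, at 249 ± 8.25 (SD, n = 2) in naive and 549 ± 20.2 in Th0. Eif1 (234 ± 6.16), Eif4a2 (230 ± 4.23) and Eif5a (211 ± 6.59) followed in naive, and of these neighbours Eif1 and Eif4a2 did not differ beyond their spread. In Treg, Eif5a came next at 343 ± 11.8, followed by Eif4b at 282 ± 8.34. Eif4e was low throughout, at 10.2 ± 6.48 in naive and 25.6 ± 2.96 in Th0.

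**Figure D5:**
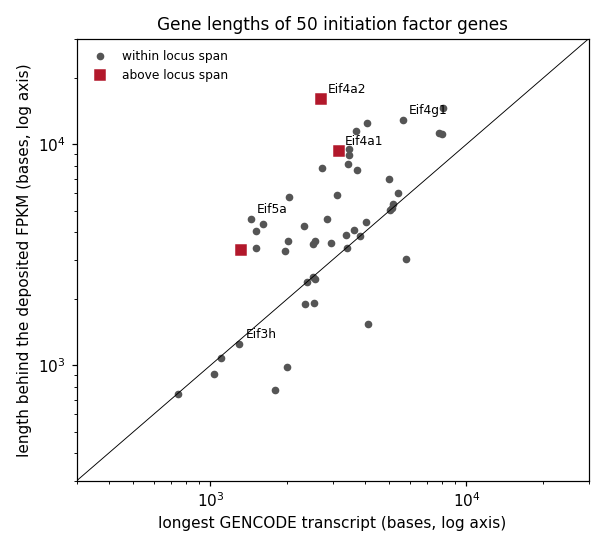
Length behind the deposited FPKM against the longest GENCODE transcript of the 50 tested members, both in bases on log axes, with the diagonal where both are equal. Most members lie above the diagonal, and 3, drawn as squares, exceed the span of their gene.

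Summed over its 14 genes on this scale, eIF3 took 37.2% and 37.8% of the member total in naive, 51.4% and 52.3% in Th0, 45.0% and 49.3% in Th17, with 43.4% and 44.0% in Treg. The ratio of the eIF3 sum to the sum of 5 eIF4F genes (Eif4e, Eif4g1, Eif4g3, Eif4a1 and Eif4a2) was 2.60 and 2.70 in naive, 6.53 and 6.00 in Th0, 4.66 and 5.21 in Th17, with 4.78 and 4.88 in Treg. Eif4a1 enters this sum without the reads of its pseudogene Eif4a-ps4. With them, the ratio would be lower in every library, by an amount that was not computed. On the deposited FPKM the same ratio was 9.72 and 10.6 in naive and 25.0 and 22.6 in Th0, so its level depends on the length used while naive is below Th0 on both. The Eif4a1 to Eif4a2 ratio of deposited FPKM was 0.67 and 0.66 in naive, 0.41 and 0.38 in Th0, 0.43 and 0.35 in Th17, with 0.67 and 0.74 in Treg. When the pseudogene's counts were added to Eif4a1, it was 1.73 and 1.72 in naive, 1.62 and 1.41 in Th0, 2.02 and 1.51 in Th17, with 3.38 and 3.05 in Treg. Treg then lay above all other libraries and no longer level with naive, and Th17 had libraries at both sides of naive. Both versions rest on deposited lengths of 9326 bases for Eif4a1 and 16090 for Eif4a2, where the longest transcripts have 3167 and 2708. The level of this ratio therefore depends on the length used, while the order of the libraries does not. The ratio of Eif4g1 to Eif4g3 ran from 1.52 to 2.01 over all libraries, with naive libraries at both sides of Th0. Eif5a to Eif5a2 was 18.1 and 17.7 in naive and 25.7 and 32.8 in Th0. Eif4e to the sum of Eif4ebp1 and Eif4ebp2 was 0.17 and 0.06 in naive and ran from 0.18 to 0.24 in the cultured libraries.

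Genes that act beside the initiation factors were counted from lists. Among 8 tested elongation genes, 6 were higher and 1 lower in Th0 than in naive, 4 fell in Th17 against Th0, and 1 rose and 6 fell in Treg against Th0. Eef1g, a subunit of the exchange complex for the tRNA carrier eEF1A, was at 1.69 ± 0.11 in Th0 against naive, and at -0.56 ± 0.11 (Th17) and -0.86 ± 0.11 (Treg) against Th0 on the log2 scale. Of 10 genes of the eIF2alpha kinase and stress arm, 3 rose and 4 fell in Th0, and 2 rose and 5 fell in Treg against Th0. Among these, Atf4, the transcription factor translated when eIF2 is phosphorylated, rose in Th0 (215 and 219 to 564 and 492 CPM; 1.28 ± 0.12) and was lower in Treg (-1.11 ± 0.12) and Th17 (-0.60 ± 0.12) than in Th0. Its target Ddit3 was at 2.89 ± 0.25, -2.26 ± 0.24 and -1.15 ± 0.23 in the same comparisons. Others of the arm went the other way in Th0: Ppp1r15a, the phosphatase subunit that restores eIF2, fell (240 in each naive library to 52.3 and 27.1 CPM; -2.59 ± 0.28), and so did the kinase Eif2ak2 (-1.60 ± 0.22).

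Of 16 cap, poly(A) and helicase partners, 7 rose and 3 fell in Th0, with Pabpc1, the poly(A)-binding protein that bridges to eIF4G, at 1.18 ± 0.08, and Mknk1, a kinase of eIF4E, at -0.96 ± 0.10. Of 7 termination and recycling genes 2 rose and 1 fell in Th0, neither hypusination enzyme, Dhps or Dohh, was called in Th0 (log2 fold changes -0.17 and -0.20), and the mitochondrial factors Mtif2 and Mtif3 were not called in any comparison. In Treg against Th0, Dhps was higher (0.44 ± 0.13).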

How the data were processed

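Total RNA was sequenced on an Illumina HiSeq instrument, per the labels' protocols. The submitters' processing notes name Bowtie2, RSEM, GRCm38.p6 and mm10, without roles or versions; annotation release and strandedness are not given in the sources used here. Each gene and library has a deposited count and a deposited FPKM, per the file headers. The deposited FPKM equalled count over library total over 1 fixed length per gene for 100% of 134607 values (relative tolerance 0.001).

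Members, lists and alternatives were chosen with earlier results of these data known. Counts were fitted with edgeR 4.0.16 (limma 3.58.1, R 4.3.3) on all 8 libraries as 4 group means, after filterByExpr (14690 genes) and TMM scaling, using glmQLFit and then glmQLFTest (4 residual degrees of freedom). Calls needed an adjusted p below 0.05, by Benjamini-Hochberg over all genes. SE is the log2 fold change over the root of F. Levels are TMM-scaled CPM. DESeq2 1.42.0 was an alternative. Replicates of a group differed by more than counting noise (chi-square per degree of freedom 8.77 to 17.4).

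Named with values were, per comparison, up to 6 called members in each direction with the greatest change, and 11 fixed members (Eif4e, Eif4g1, Eif4a1, Eif4a2, Eif4ebp1, Eif4ebp2, Eif2s1, Eif2b3, Eif3a, Eif5a, Eif6). Others stand for their complex. Transcript lengths and shared sequence come from GENCODE M21 on GRCm38, promoters from RefSeq on GRCm38.p6, where 37 of 40 continued into an annotated transcript in the printed orientation. Some marker genes are not reported here.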

Additional observations from a re-analysis of the deposited data

How the results depend on the processing

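The counts of members called kept within 1.5 times under RLE scaling, no filter on low counts, DESeq2 and added copies. In Th17 against Th0, members called higher went from 5 to 3 in a fit of only those 2 groups and to 3 with the replicate block, and ran from 1 to 7 when 1 library was left out. The replicate numbers were not treated as pairs in the main fit. Only Th17 and Treg share both numbers, and their replicate differences correlated at 0.103 across 14690 genes. A correlation over all genes cannot show whether the members share a replicate effect, and this was not tested. In Treg against Th0, the higher count ran from 9 to 14 over left-out libraries. In Th17 against Treg, 7 lower became 11 without a scaling factor, and left-out libraries gave 0 to 5 higher and 1 to 11 lower. With 1 library left, a group is assumed to vary like the others. Library totals with no scaling factor moved the median log2 fold change of all genes from -0.08 to -0.23 in Th0 against naive, from 0.05 to 0.17 in Th17 against Th0 and from 0.09 to 0.25 in Treg against Th0. The member medians moved with it, from 0.40 to 0.25, from -0.16 to -0.044 and from -0.18 to -0.015. The causes were not tested.

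Uncalled log2 fold changes near 0 changed sign. Eif2s1 in Treg against Th0 was at -0.054 under RLE and DESeq2, -0.034 with no filter, -0.043 in the fit of 2 groups, -0.004 with the replicate block and -0.095 to 0.115 over left-out libraries. Eif3a in Th17 against Treg was at 0.018 under RLE and DESeq2, 0.024 with no filter, 0.021 in the fit of 2 groups and -0.137 to 0.118 over left-out libraries. In Th17 against Th0, left-out libraries gave -0.089 to 0.307 for Eif2b3, -0.283 to 0.0024 for Eif2s1, -0.094 to 0.149 for Eif4e and -0.0087 to 0.304 for Eif4ebp1. There, Eif4e was at 0 under RLE and -2e-04 in DESeq2, and Eif4a1 at 0.070 with copies added. In Treg against Th0, Eif4e was at 0.147 with the replicate block, and Eif4ebp2 at 0.085 without a scaling factor and -0.148 to 0.0039 over left-out libraries.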
